A study of Homo sapiens with 6 samples.

Results

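The genes described here are 37 zinc finger genes of a KRAB zinc finger cluster on the long arm of chromosome 19 (19q13.41 to q13.42). They were selected by symbol from a table of 26485 gene rows, and all 37 were found. They lie between 51804442 and 53580269 of chromosome 19 (GRCh38, RefSeq), an interval of 1776 kb that opens with ZNF577 and ends with ZNF331. The list was chosen with the difference between the clones already known, so the members' own levels and differences are a description. Where members are counted as passing a threshold in the fit across all genes, the share of all genes that passed stands beside the count and nothing is read from it.

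Polyadenylated RNA was sequenced in 6 libraries of HuCCT1, an established human bile duct cancer (cholangiocarcinoma) cell line. Libraries a, b and c of CRISPR clone 1 carry the genotype label WT (wild type below), and libraries a, b and c of clone 22 carry the label AQP1 KO (knockout below). AQP1 encodes the water channel aquaporin-1, and both clones grew in the same serum-containing medium. Each genotype is 1 clone, so genotype and clone cannot be told apart. The labels do not say whether the letters are separate cultures, so the spread between libraries may be technical. Counts of 3 libraries are always listed in the order a, b, c, wild type first. AQP1 itself had 2, 8 and 10 counts in wild type and 10, 7 and 7 in the knockout, which overlap and do not check the genotype labels.

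C2H2 zinc finger proteins bind DNA through rows of short zinc-binding fingers, each of which contacts a few bases. Many carry a KRAB domain, which recruits the co-repressor TRIM28 (KAP1) and through it the histone methyltransferase SETDB1, and so places H3K9me3 heterochromatin at the bound site. Their best-known targets are transposable elements, and the genes arose by tandem duplication, which left large clusters on chromosome 19 whose own chromatin can carry the same mark.

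Of the 37 members, 31 had a promoter window in the RefSeq promoter table (GRCh38.p14, 250 bases before to 50 after an annotated start), with 44 windows in all. The members with no entry were ZNF649, ZNF480, ZNF610, ZNF600, ZNF28 and ZNF665. Shown first, with CpG dinucleotides in capitals, are 4 members with almost no counts in wild type and clear expression in the knockout (ZNF528, ZNF534, ZNF808 and ZNF331), then ZNF880, with 0 counts in both clones, then ZNF525, the member that differed most in the opposite direction, and its neighbour ZNF765. All 7 windows are 5′ to 3′ on the plus strand: chr19:52397599-52397898 (ZNF528), chr19:52428898-52429197 (ZNF534), chr19:52527418-52527717 (ZNF808), chr19:53554363-53554662 (ZNF331, the window with the most CpG of its 6), chr19:52369673-52369972 (ZNF880), chr19:53365455-53365754 (ZNF525) and chr19:53394899-53395198 (ZNF765).
ZNF528: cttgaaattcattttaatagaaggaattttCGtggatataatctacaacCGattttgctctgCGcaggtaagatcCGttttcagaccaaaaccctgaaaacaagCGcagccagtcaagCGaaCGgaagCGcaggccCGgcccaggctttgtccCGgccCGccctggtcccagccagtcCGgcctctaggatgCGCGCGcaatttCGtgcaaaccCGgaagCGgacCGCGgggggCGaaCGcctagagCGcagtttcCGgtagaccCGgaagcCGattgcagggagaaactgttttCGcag
ZNF534: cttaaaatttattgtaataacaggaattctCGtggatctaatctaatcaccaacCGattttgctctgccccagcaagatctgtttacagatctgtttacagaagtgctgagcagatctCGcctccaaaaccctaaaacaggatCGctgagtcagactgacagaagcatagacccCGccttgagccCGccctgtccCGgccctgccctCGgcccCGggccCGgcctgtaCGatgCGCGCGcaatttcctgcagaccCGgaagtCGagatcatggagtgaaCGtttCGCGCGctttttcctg
ZNF808: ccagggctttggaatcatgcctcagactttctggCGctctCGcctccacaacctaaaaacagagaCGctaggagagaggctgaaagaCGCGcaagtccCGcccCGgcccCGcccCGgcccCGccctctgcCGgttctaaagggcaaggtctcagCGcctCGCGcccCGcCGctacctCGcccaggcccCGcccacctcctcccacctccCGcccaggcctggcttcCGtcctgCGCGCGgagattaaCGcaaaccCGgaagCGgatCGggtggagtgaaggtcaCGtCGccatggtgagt
ZNF331: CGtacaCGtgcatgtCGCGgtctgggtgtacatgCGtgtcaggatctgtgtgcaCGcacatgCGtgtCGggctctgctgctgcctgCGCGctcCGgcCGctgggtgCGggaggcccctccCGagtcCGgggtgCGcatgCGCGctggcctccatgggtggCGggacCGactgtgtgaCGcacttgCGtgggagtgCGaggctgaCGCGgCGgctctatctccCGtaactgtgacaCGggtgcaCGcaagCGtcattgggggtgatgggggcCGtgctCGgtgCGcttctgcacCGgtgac
ZNF880: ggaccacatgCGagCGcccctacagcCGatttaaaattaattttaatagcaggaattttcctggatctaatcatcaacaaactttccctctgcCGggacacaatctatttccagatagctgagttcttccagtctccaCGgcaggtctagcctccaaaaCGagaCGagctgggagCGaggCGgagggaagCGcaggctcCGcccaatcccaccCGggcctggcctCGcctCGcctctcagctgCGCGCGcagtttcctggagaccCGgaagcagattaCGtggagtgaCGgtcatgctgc
ZNF525: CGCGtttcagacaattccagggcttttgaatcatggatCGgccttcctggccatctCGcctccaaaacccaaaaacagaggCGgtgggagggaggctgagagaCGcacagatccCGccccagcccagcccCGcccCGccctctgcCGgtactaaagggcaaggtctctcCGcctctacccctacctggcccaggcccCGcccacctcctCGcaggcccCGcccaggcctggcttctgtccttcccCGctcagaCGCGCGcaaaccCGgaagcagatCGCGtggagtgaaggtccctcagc
ZNF765: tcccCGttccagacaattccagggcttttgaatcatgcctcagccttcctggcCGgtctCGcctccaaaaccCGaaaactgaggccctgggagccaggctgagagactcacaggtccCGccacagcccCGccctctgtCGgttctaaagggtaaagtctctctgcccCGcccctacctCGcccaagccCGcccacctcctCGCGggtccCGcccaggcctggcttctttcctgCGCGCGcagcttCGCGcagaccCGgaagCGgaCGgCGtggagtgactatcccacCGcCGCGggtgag
The 4 windows of members under the floor of 3 counts in every wild-type library hold 27 (ZNF528), 20 (ZNF534), 29 (ZNF808) and 34 (ZNF331) CpG. The window of ZNF880, with 0 counts in both clones, holds 20. ZNF525 has 21 and ZNF765, at 71.9% amino acid identity its nearest relative among the members, has 25. The numbers overlap between the kinds of member shown.

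Library totals were 36925338 to 41724447 counts, and levels are in CPM (counts scaled to a library total of 1000000), as mean ± SD over 3 libraries of a clone. The floor was set at 3 counts in a library, or 0.0719 to 0.0812 CPM, and fold bounds against libraries at 0 use it in each library. A member was called silent under a mean of 0.1 CPM, low from 0.1 to under 1 CPM, and expressed from 1 CPM. The members together held 4851, 5201 and 4970 counts in wild type and 8906, 8843 and 8153 in the knockout. That is 0.0119 to 0.0126% of a wild-type library and 0.0216 to 0.0221% of a knockout library, with no overlap between the clones.

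In wild type 14 members were silent, 2 were low and 21 were expressed. In the knockout 3 were silent, 6 were low and 28 were expressed. Of the 14 silent in wild type, 6 were expressed in the knockout (ZNF528, ZNF534, ZNF808, ZNF701, ZNF83 and ZNF331), 5 were low (ZNF578, ZNF415, ZNF347, ZNF665 and ZNF813) and 3 were silent (ZNF610, ZNF880 and ZNF677). The 6 are 17.6% of the 34 members with any count. Among all 19476 genes with a count, 0.868% were silent in wild type and expressed in the knockout. The opposite change, expressed in wild type and silent in the knockout, was seen in 0 members and in 0.18% of all genes with a count. Since the rule used this contrast, nothing is read from these shares. In bulk RNA, fewer cells that express a gene and less RNA per cell cannot be told apart. Near the thresholds were ZNF665 at 0.101 CPM in the knockout, ZNF813 at 0.0888 CPM in wild type and ZNF577 at 1.05 CPM in the knockout.

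**Figure D1:**
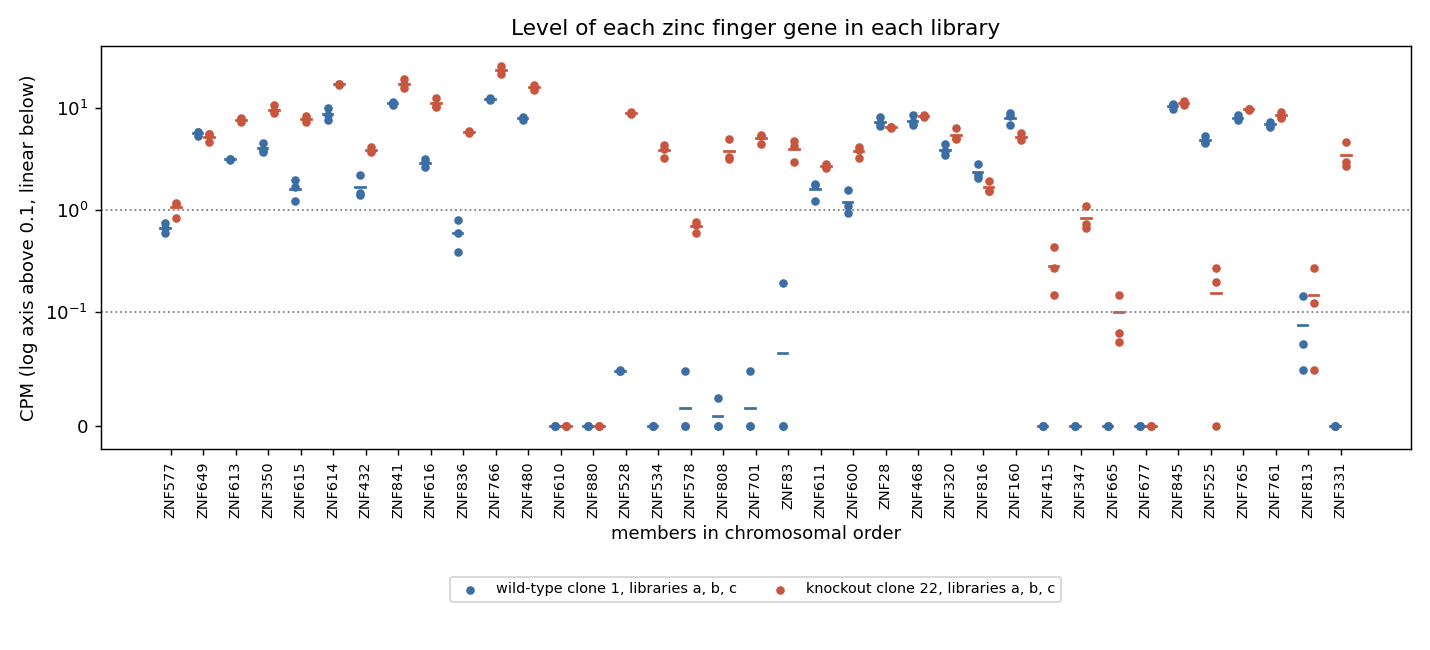
Level of each of the 37 members in CPM (vertical axis, logarithmic above 0.1 and linear below) in chromosomal order, with 1 point per library, a bar at the mean of 3 libraries and dotted lines at 0.1 and 1 CPM. Wild-type points lie at or near 0 for the 14 silent members, and knockout points of 6 of these lie above 1 CPM.

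Of the 37 members, 31 had enough counts for the fit across all genes. In this edgeR quasi-likelihood fit 21 were higher in the knockout at a Benjamini-Hochberg adjusted p under 0.05, 3 were lower (ZNF525, ZNF160 and ZNF816) and 7 did not pass. Of all 14405 genes tested, 74.4% passed, 37.1% higher and 37.2% lower in the knockout. The median log2 fold change (knockout over wild type) of the 31 members was 0.96, also with members at 0 in wild type set to their bound, against 0.01 over all tested genes. As 8 of the 31 had enough counts only in the knockout, the 23 members not silent in either clone are also given alone: 13 were higher, 3 were lower, and the median was 0.60. Among the 31, the libraries of the clones overlapped in CPM for ZNF649, ZNF468 and ZNF845. The share of all genes without overlap was not computed, so nothing is read from this.

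Read along the chromosome, the wild-type states fell into 6 stretches, drawn here after the states were seen. The first 12 members, from ZNF577 to ZNF480 (521 kb), were all low or expressed in wild type. Their summed counts were 2372, 2571 and 2439 in wild type and 5036, 5105 and 4682 in the knockout. All 3 knockout sums lie above all wild-type sums. Of these 12 members 10 passed as higher and 0 as lower, beside 37.1% and 37.2% of all tested genes. Their log2 fold changes ran from -0.15 to 3.22 with a median of 1.05.

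The 4 members with the highest mean CPM over the 6 libraries, ZNF766, ZNF841, ZNF614 and ZNF480, lie in this stretch. They were also the highest 4 in the knockout, while in wild type ZNF845 of the fifth stretch (10.4 ± 0.591 CPM) was above ZNF614 and ZNF480. ZNF766 had 491, 515 and 492 counts in wild type and 876, 949 and 938 in the knockout, or 12.1 ± 0.337 against 23.4 ± 1.98 CPM (log2 fold change 0.89, SE 0.073). ZNF841 had 427, 461 and 474 counts against 696, 630 and 699 (0.58, SE 0.085). ZNF614 had 341, 407 and 316 counts against 684, 693 and 633 (0.92, SE 0.095). In each of these 3 genes the lowest knockout library lay above the highest wild-type library. ZNF480 also showed no overlap, with 303, 336 and 328 counts against 684, 642 and 551 (0.96, SE 0.086). Per kb of the main GENCODE transcript, the order of levels in wild type began with ZNF841 (2.88 ± 0.113 CPM per kb), ZNF766 (1.92 ± 0.053) and ZNF160 (1.83 ± 0.237), of which the last 2 lie within their spread of each other. In the knockout it began with ZNF841 (4.48 ± 0.462), ZNF350 (4.07 ± 0.377) and ZNF766 (3.71 ± 0.314), each within the larger SD of the next.

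The widest difference in the first stretch was that of ZNF836, with 24, 16 and 33 counts in wild type and 230, 235 and 217 in the knockout (log2 fold change 3.22, SE 0.230). Its neighbour ZNF616 had 107, 120 and 130 counts against 424, 512 and 372 (1.87, SE 0.132). ZNF615 had 79, 69 and 51 counts against 294, 339 and 290 (2.21, SE 0.176). The clones did not overlap in any of these 3 genes. ZNF350 encodes ZBRK1, a KRAB repressor known as a partner of BRCA1, and had 149, 188 and 159 counts against 429, 361 and 340 (1.19, SE 0.129). ZNF613 (1.23) and ZNF432 (1.14) differed by like amounts, with no overlap between clones. ZNF577 and ZNF649 were the members of this stretch that did not pass. ZNF577 had 24, 31 and 28 counts against 47, 48 and 31 (0.60, SE 0.309), without overlap in CPM. ZNF649 had 214, 236 and 240 counts in wild type and 188, 225 and 204 in the knockout (-0.15, SE 0.132), with overlap. It was named both among the lowest and among the smallest differences.

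The second stretch, 8 members from ZNF610 to ZNF83 (360 kb), begins 4.30 kb after the end of ZNF480. All 8 were silent in wild type, with 3, 2 and 14 counts summed over the stretch. The knockout libraries held 1081, 1044 and 973 counts over the same genes. The difference was carried by ZNF528, ZNF534, ZNF808, ZNF701 and ZNF83, and to a lesser degree by ZNF578.

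ZNF528 had 2 counts in each wild-type library and 363, 353 and 337 in the knockout libraries. In CPM this is 0.0486 ± 0.00072 against 8.88 ± 0.249, a ratio of summed depth-scaled counts of 183 with an exact 95% counting interval of 83.7 to 499. The wild-type counts of ZNF528 lie under the floor of 3 in each library, so this ratio rests on counts that cannot be told from 0. Such intervals and floors cover counting error only. ZNF528 was the highest per transcript length of the 6 switched members, at 2.23 ± 0.063 CPM per kb in the knockout. ZNF534, known to bind and silence HERVH endogenous retroviruses, had 0 counts in all wild-type libraries and 177, 160 and 118 in the knockout. Against the floor of 3 counts in each wild-type library it was at least 52.4-fold higher. ZNF808, whose loss in humans prevents pancreas formation and which represses MER11 elements, had 1, 0 and 0 counts in wild type and 127, 203 and 122 in the knockout. A ratio of 471 with a counting interval of 84.1 to 18634 rests on that 1 wild-type count. In these 3 genes no wild-type library held 3 counts, and the lowest knockout library held 118.

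ZNF701 had 0, 0 and 2 counts in wild type and 213, 179 and 200 in the knockout, a ratio of 308 (85.0 to 2551). ZNF83 had 0, 0 and 8 counts against 170, 120 and 174, a ratio of 60.4 (30.4 to 141). ZNF578 had 0, 0 and 2 counts against 31, 29 and 22, a ratio of 42.7 (11.4 to 359). All wild-type counts of these 3 genes came from library c, without which they were at 0 in wild type, and no wild-type library reached the lowest knockout library. Those of ZNF701 and ZNF578 lie under the floor, so these ratios rest on counts that cannot be told from 0. ZNF610 and ZNF880 had 0 counts in all 6 libraries. They lie between ZNF480, expressed in both clones, and ZNF528, expressed in the knockout alone. With 0 counts in a library the floor allows up to 0.0812 CPM.

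The third stretch, 7 members from ZNF611 to ZNF160 (401 kb), begins 12.3 kb after ZNF83 and was expressed in both clones. Summed counts were 1250, 1388 and 1269 in wild type and 1385, 1334 and 1230 in the knockout, with overlap. Of the 7 members 3 passed as higher and 2 as lower, beside 37.1% and 37.2% of all tested genes. The median log2 fold change was 0.09. ZNF600 had 38, 64 and 46 counts against 158, 169 and 119 (1.59, SE 0.229). ZNF611, at 79.6% amino acid identity the nearest relative of ZNF600, had 71, 74 and 51 counts against 115, 107 and 94 (0.69, SE 0.218). Both showed no overlap, and reads shared by such near copies could have been split between them. ZNF320 had 179, 142 and 157 counts against 207, 200 and 232 (0.43, SE 0.157). It no longer passed when wild-type library b (0.34) or c (0.40) or knockout library c (0.33) was left out.

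ZNF160, known as a repressor of the TLR4 gene, was lower in the knockout, with 333, 364 and 284 counts in wild type and 228, 212 and 176 in the knockout (log2 fold change -0.67, SE 0.131), without overlap. ZNF816 had 89, 115 and 86 counts against 79, 62 and 57 (-0.55, SE 0.222), with knockout library a nearest to the wild-type range. It no longer passed without wild-type library a (-0.60) or b (-0.41) or knockout library b (-0.47) or c (-0.48). The call was also lost with library totals alone (-0.49), with DESeq2 (-0.53) and with the letters as a replicate block (-0.55). ZNF28 had 268, 331 and 295 counts against 264, 256 and 237 (-0.23, SE 0.116) and did not pass. ZNF28 lies wholly within the annotated span of ZNF600 on the same strand, with 24.2 kb shared. ZNF468 had 272, 298 and 350 counts against 334, 328 and 315 (0.09, SE 0.112), with overlap.

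The fourth stretch, from ZNF415 to ZNF677 (147 kb), begins 4.46 kb after ZNF160 and held 0 counts in all wild-type libraries. Its knockout sums were 39, 59 and 46 counts. ZNF347 had 27, 45 and 27 of these and was at least 11.4-fold higher, against the floor in each wild-type library. ZNF415 had 6, 11 and 16 counts and was at least 3.89-fold higher. ZNF665 had 6, 3 and 3 counts, with libraries b and c at the floor, so no fold is given. ZNF677, a gene known for promoter methylation in tumours, had 0 counts in all 6 libraries. No member of this stretch reached a mean of 1 CPM in the knockout, while 5 of 8 did in the second stretch.

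The fifth stretch, 4 members from ZNF845 to ZNF761 (125 kb), begins 78.9 kb after ZNF677 and was expressed in wild type. Its summed counts were 1224, 1234 and 1245 in wild type and 1240, 1189 and 1042 in the knockout. ZNF525 was lower in the knockout, with 215, 184 and 193 counts in wild type and 0, 8 and 10 in the knockout. This is 4.79 ± 0.450 against 0.155 ± 0.140 CPM (log2 fold change -5.00, SE 0.437), and depth-scaled counts gave a ratio of 0.0317 (0.0186 to 0.0505). The fitted value was -4.40 without knockout library a, which had 0 counts, and -5.60 without knockout library c. The clones did not overlap, and ZNF525 was the sole member to leave the expressed state. ZNF845, which ends 8.80 kb before ZNF525, had 428, 403 and 455 counts against 475, 452 and 391 (0.04, SE 0.089), and without wild-type library b its difference was -0.011. ZNF765, which starts 8.56 kb after ZNF525, had 317, 347 and 317 counts against 399, 395 and 347 (0.22, SE 0.097). ZNF761 had 264, 300 and 280 counts against 366, 334 and 294 (0.24, SE 0.108). In CPM the clones overlapped for ZNF845 and not for ZNF765 or ZNF761, and none of these 3 passed in the main fit.

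The last stretch holds ZNF813 and ZNF331, the first of which begins 9.47 kb after ZNF761. ZNF813 had 2, 6 and 3 counts in wild type and 5, 2 and 10 in the knockout, which overlap. ZNF331, an imprinted gene often methylated in gastrointestinal tumours, had 0 counts in all wild-type libraries and 120, 110 and 170 in the knockout. Against the floor in each wild-type library it was at least 46.8-fold higher, and knockout library c was the highest.

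**Figure D2:**
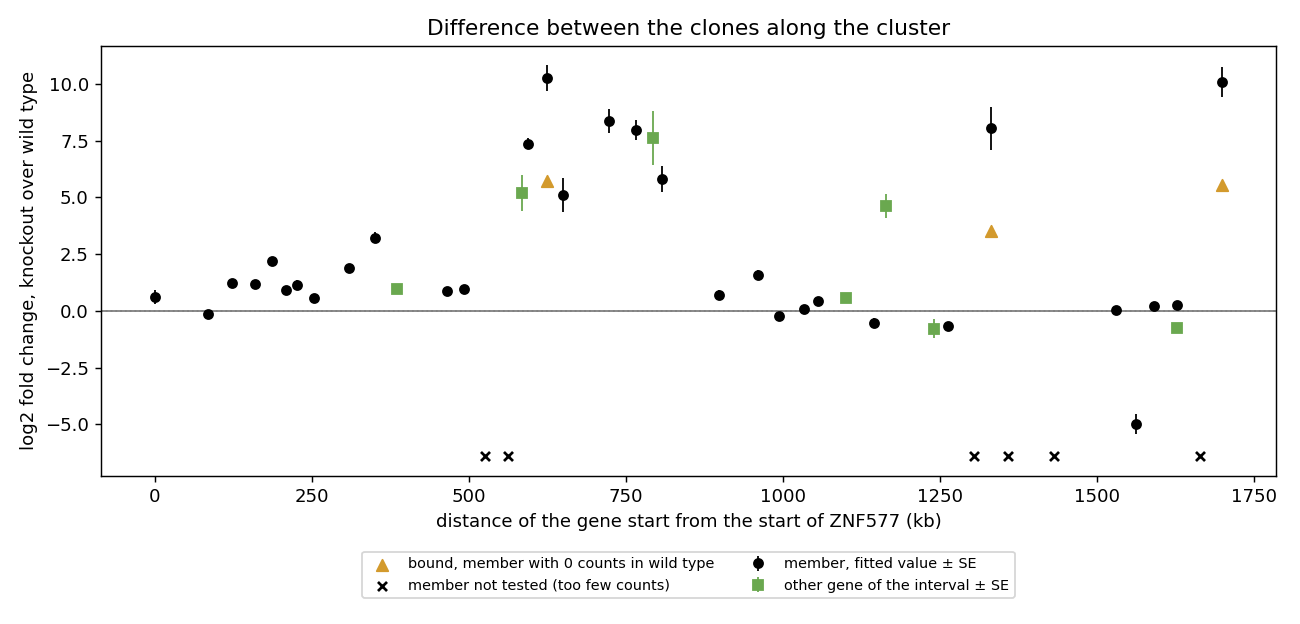
Log2 fold change, knockout over wild type, against the distance of a gene's lower coordinate from that of ZNF577 in kb, for the 31 tested members (black circles, with SE), other tested genes of the interval (green squares, with SE) and bounds for tested members with 0 counts in wild type (triangles). SE is the absolute log2 fold change over the square root of the test's F, and says little of precision near 0 counts. Crosses mark the 6 members not tested. The first stretch lies mostly near 1, the second above 5, and ZNF525 at -5.00.

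RefSeq places 19 genes of the table in the interval that are not members, and 7 were tested. Among them, 5 were higher in the knockout, 1 was lower and 1 did not pass (edgeR quasi-likelihood test, Benjamini-Hochberg adjusted). Of all tested genes 74.4% passed. Most of the 7 carry a ZNF symbol of the same cluster, so they are no independent background. Those without were PPP2R1A (higher), TPM3P9 (lower) and ERVV-2 (did not pass). ZNF702P, ZNF137P and ZNF528-AS1 had enough counts only in the knockout, so their adjusted p-values are a description. PPP2R1A, the scaffold subunit of protein phosphatase 2A, rose from 97.0 ± 0.620 to 195 ± 3.13 CPM (log2 fold change 0.95, SE 0.026, edgeR adjusted p = 8.65e-13). It lies between ZNF836 and ZNF766 in the first stretch, and its difference is close to that stretch's median. ZNF888 rose from 2.94 ± 0.084 to 4.59 ± 1.08 CPM (0.59, edgeR adjusted p = 0.00979). The pseudogene ZNF702P had 1, 2 and 1 counts against 34, 44 and 29 (edgeR adjusted p = 3.75e-06), and ZNF137P had 0 in wild type against 11, 28 and 34, at least 8.58-fold higher against the same floor (edgeR adjusted p = 0.000105). ZNF137P shares 3.47 kb with ZNF701, so its reads cannot be told apart from those of ZNF701 with certainty.

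ZNF528-AS1, a transcript on the strand opposite to ZNF528, had 0, 0 and 4 counts in wild type and 62, 23 and 74 in the knockout, a ratio of 41.4 (15.9 to 154; edgeR adjusted p = 4.15e-05). Its annotated GENCODE start lies 83 bases from that of ZNF528, and it shares 8.83 kb with ZNF880, which had 0 counts throughout. Whether the counting used strand is not stated in the labels, so antisense counts are uncertain. TPM3P9 was the gene that fell, from 16.9 ± 0.683 to 10.5 ± 0.562 CPM (-0.74, SE 0.076, edgeR adjusted p = 9.25e-07). It shares 12.7 kb and a strand with ZNF761, and their annotated starts lie 9 bases apart, so their counts are uncertain too. Among the 1 Mb flanks, 9 of 15 tested genes before ZNF577 were higher and 4 lower (median 0.47), and 2 of 9 after ZNF331 were higher and 2 lower (median 0.03). Over all tested genes 37.1% were higher and 37.2% lower.

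Other zinc finger genes, taken by RefSeq symbols of ZNF followed by digits alone, are set beside the members, first those of chromosome 19. Of 201 such rows 57 were silent in wild type and 17 in the knockout, and 19 of the 193 with a count (9.84%) were silent in wild type and expressed in the knockout. Of 170 tested, 95 were higher and 22 lower, with a median log2 fold change of 0.43. The 234 ZNF rows of other chromosomes had 31 silent in wild type and 25 in the knockout, and 2 of 220 (0.909%) were silent in wild type and expressed in the knockout. Of 208 tested, 83 were higher and 64 lower, with a median of 0.09. Over the whole of chromosome 19 outside the interval the median was 0.15. Over all tested genes 37.1% were higher and 37.2% lower. These sets are given side by side with no test between them.

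**Figure D3:**
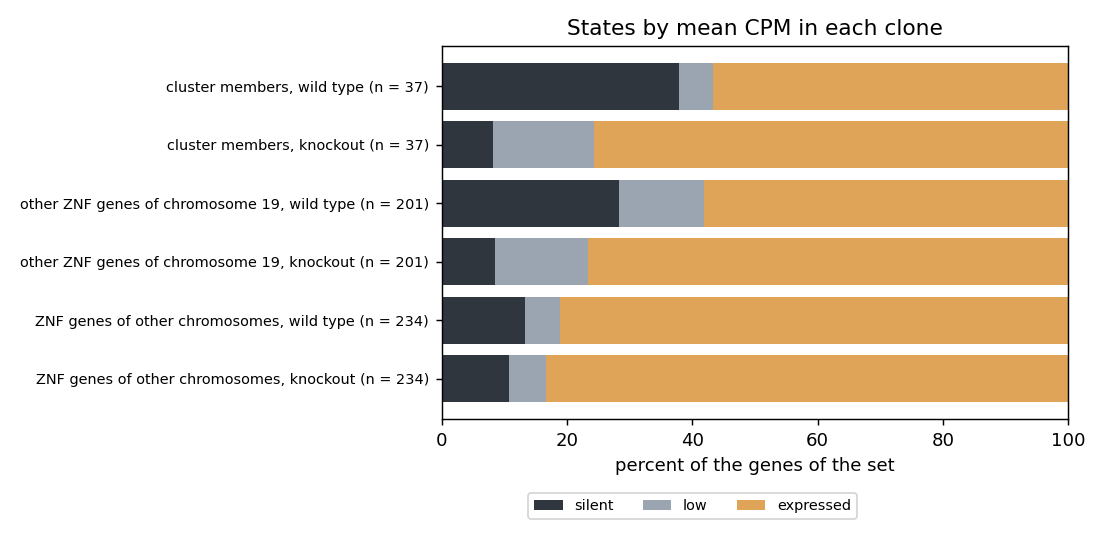
Share of genes (horizontal axis, percent) that were silent, low or expressed by mean CPM in each clone, for the 37 members, 201 other ZNF genes of chromosome 19 and 234 ZNF genes of other chromosomes. Silent were 14 of the 37 members in wild type and 3 in the knockout. Of the 201 other ZNF genes of chromosome 19, 57 and 17 were silent, and of the 234 of other chromosomes 31 and 25. The members were chosen with these values known.

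Genes of KRAB silencing and of histone or DNA methylation are given from a list of 40 symbols. It also holds TET and KDM4 genes, which act against these marks, and the zinc finger gene ZNF274. Of the symbols 39 were in the table and all 39 were tested. The symbol not found, TASOR, was listed beside its older form FAM208A, which was found. In the knockout 12 were higher, 15 were lower and 12 did not pass (edgeR quasi-likelihood test, Benjamini-Hochberg adjusted), with a median log2 fold change of -0.02. The 27 of 39 that passed stand beside 74.4% of all tested genes, so the count is not a result about the list. TRIM28, the co-repressor that KRAB domains bind, fell from 376 ± 4.54 to 197 ± 2.21 CPM (-0.98, SE 0.024, edgeR adjusted p = 2.39e-13). Its counts were 15412, 15334 and 15660 in wild type and 7970, 8059 and 7371 in the knockout, and this was the lowest fold change in the list. SETDB1, the H3K9 methyltransferase of the complex, fell from 42.8 ± 0.917 to 35.7 ± 2.85 CPM (-0.32, SE 0.062, edgeR adjusted p = 0.000395). ATF7IP, the partner that stabilises SETDB1, rose from 154 ± 2.56 to 245 ± 6.89 CPM (0.62, edgeR adjusted p = 1.5e-10).

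Of the 3 HP1 genes, whose proteins read H3K9me3, CBX1 fell from 286 ± 8.78 to 201 ± 6.41 CPM (-0.56, edgeR adjusted p = 1.26e-09) and CBX5 rose from 243 ± 5.49 to 324 ± 3.92 CPM (0.37, edgeR adjusted p = 1.28e-08). CBX3 did not pass (0.0094, edgeR adjusted p = 0.739). MORC2, an ATPase that works with the HUSH silencing complex, fell from 67.3 ± 2.08 to 41.5 ± 0.972 CPM (-0.75, edgeR adjusted p = 4.28e-09). CHD3, a remodeller of the NuRD complex, rose from 72.1 ± 1.90 to 166 ± 1.68 CPM (1.15, edgeR adjusted p = 2.61e-13). It was 1 of 2 genes of the list that rose by at least 2-fold. The other was TET1, which oxidises methylated cytosine, from 1.90 ± 0.430 to 4.06 ± 0.219 CPM (1.04, edgeR adjusted p = 0.000315). UHRF1, which guides the maintenance methyltransferase DNMT1, fell from 134 ± 2.95 to 89.0 ± 1.08 CPM (-0.65, edgeR adjusted p = 7.73e-11), and DNMT1 fell by 0.20 (edgeR adjusted p = 2.65e-06). The other genes of cytosine methylation in the list were mixed: the methyltransferase DNMT3A rose (0.49, edgeR adjusted p = 6.64e-06) and DNMT3B did not pass (edgeR adjusted p = 0.990). TET2 rose (0.35, edgeR adjusted p = 8.43e-05) and TET3 fell (-0.53, edgeR adjusted p = 1.36e-06).

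Transposable elements themselves are not counted in a table of genes. Of 12 genes derived from retroelements 5 were tested: 1 was higher, 2 were lower and 2 did not pass. Of all tested genes 74.4% passed. PEG10 had 70563, 69126 and 71856 counts in wild type and 8581, 8759 and 7629 in the knockout (-3.08, SE 0.028, edgeR adjusted p = 1.75e-17). ERVMER34-1 fell from 51.9 ± 2.68 to 5.86 ± 0.600 CPM (-3.20, SE 0.078, edgeR adjusted p = 2.53e-13), and ERV3-1 rose from 2.98 ± 0.127 to 4.10 ± 0.318 CPM (0.41, edgeR adjusted p = 0.0294). ERVV-2, which lies inside the interval, was at 0.558 ± 0.105 and 0.335 ± 0.113 CPM and did not pass (edgeR adjusted p = 0.103).

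What the silent members share was looked for in their promoters and proteins, neither of which the rule used. In the window with the most CpG of each gene, the 12 members silent in wild type with a window had 17 to 34 CpG (median 26.5) and a median observed over expected CpG ratio of 0.911. The 19 not silent in wild type had 14 to 30 CpG (median 25) and a median ratio of 0.827. The ranges overlap. Over all 35116 windows of the table the median was 14 CpG, and 32.0% had at least 25. That comparison favours the members slightly, since the richest of their windows was taken. The letters CGCG were in 30 of 31 windows, against 49.9% of all windows, a background not matched for CpG number. They were in 12 of 12 windows of silent members and 18 of 19 of the others, so they did not set the silent members apart. The letters TATAAA, on either strand, were in 0 of 31 against 11.5%, and CCAAT, on either strand, was in 8 of 31 against 34.6%. These are matches of letters in a window of 300 bases and say nothing of binding, and DNA methylation was not analysed here.

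**Figure D4:**
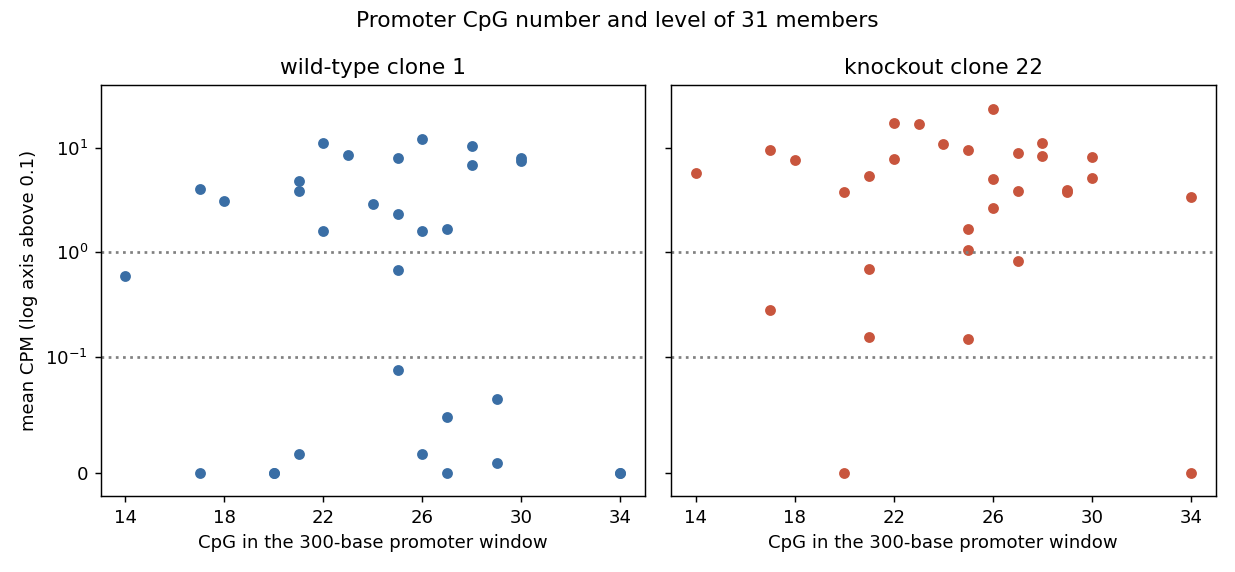
Mean CPM (vertical axis, logarithmic above 0.1 and linear below) against the number of CpG in the 300-base promoter window for 31 members, in wild type (left) and the knockout (right), 1 point per member. Silent and expressed members span overlapping CpG numbers in both clones.

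By strand, 9 of the 14 members silent in wild type are on the plus strand and 5 on the minus strand, against 7 and 16 of the 23 others. Strand and silence both run in blocks of neighbours (plus from ZNF766 to ZNF701, minus from ZNF83 to ZNF677). The members are therefore no separate observations of strand, and nothing is read from these counts. By GENCODE translations the silent members have 7 to 23 C2H2 fingers (median 13) in 462 to 903 residues, and the others have 7 to 26 (median 13) in 468 to 970 residues. ZNF845 has the most fingers, 26. The nearest relative of a member among the 37 was 44.1 to 70.2% identical for the silent members and 46.2 to 79.6% for the others. ZNF331 was the least like any other member (44.1%). Of the closest relatives, ZNF611 and ZNF600 (79.6%) were both higher in the knockout (0.69 and 1.59), as were ZNF841 and ZNF836 (73.2%), by 0.58 and 3.22. ZNF525 (-5.00) and ZNF765 (0.22), at 71.9%, had opposite signs, though ZNF765 did not pass in the main fit. No treatment of reads that match several copies is given in the sources used here, so counts of these near copies are uncertain.

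Markers of cell types were read beside these results. The 8 cholangiocyte markers summed to 6329 to 6368 CPM in wild type and 2703 to 2772 CPM in the knockout. Of the 8, 7 were lower (edgeR), beside 37.2% of all tested genes. The 6 fibroblast markers summed to 14.98 to 17.3 against 27.8 to 32.7 CPM. Of 4 tested, 3 were higher (LUM, DCN and PDGFRB), beside 37.1% of all tested genes. DCN had 0, 0 and 4 counts in wild type against 32, 36 and 39 in the knockout. It had enough counts only in the knockout, so its call is a description. Most of the rise was LUM, from 5.33 ± 0.616 to 17.4 ± 0.675 CPM. COL1A1 did not pass (-0.18, edgeR adjusted p = 0.248), and COL1A2 and COL3A1 were silent in both clones. The 5 immune markers summed to 107 to 112 against 203 to 210 CPM, nearly all of it CD68, while the defining marker PTPRC had 0 counts in all 6 libraries. The 3 endothelial markers summed to 1.70 to 2.10 against 1.86 to 2.79 CPM, and the 2 tested, PECAM1 and VWF, did not pass (edgeR adjusted p = 0.165 and 0.305). The part of the cholangiocyte and fibroblast genes in the results on zinc fingers was not tested.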

How the data were processed

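The authors deposited a single table of whole-number read counts per gene symbol for the 6 libraries, with no normalization. Libraries were made from polyadenylated RNA with a strand-preserving TruSeq kit, per the labels' protocols. Trimmomatic 0.33, FastQC, HISAT2 and edgeR were used with genome build hg38, per the submitters' processing notes. Information on the counting program, its strand setting, its annotation and its handling of reads that match several copies was not given in the sources used here.

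Library totals were 36925338 to 41724447 counts. Of 26485 rows, 23758 matched a current RefSeq symbol, 1536 an older one and 1191 none. The fit used edgeR 4.0.16 (R 4.3.3) on the counts after filterByExpr, with TMM factors of 0.980 to 1.024. Clone was its single term, all 6 libraries entered, and p-values of the quasi-likelihood test were adjusted by Benjamini-Hochberg over 14405 genes with a threshold of 0.05. The common biological coefficient of variation was 0.0652. Within-group pairs of libraries differed by 4.18 to 7.61 chi-square per degree of freedom, over genes with at least 20 counts, so none was a repeat of another. The steps were tested on simulated counts.

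The members and lists were chosen with earlier results of these data known. Members named were those silent in 1 clone and expressed in the other, the 5 highest and 5 lowest log2 fold changes, the 4 highest levels and the 3 smallest differences. Other members are named from their place in the cluster, and were chosen after their values were seen. Ratios of members use summed counts scaled by library totals. Fitted fold changes of members with 0 counts in wild type depend on edgeR's prior count and are no bound, so bounds are given in their place. Promoters came from the RefSeq table. Protein features and transcript lengths came from GENCODE 29 translations and principal transcripts, in place of the protein table first planned. C2H2 fingers were counted as C, 2 to 4 residues, C, 12 residues, H, 3 to 5 residues, H.

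The alternatives tried were at least 1 CPM in 3 libraries or no filter, RLE factors, library totals without factors, DESeq2 1.42.0, a replicate block by letter, other state thresholds, and leaving out each library. The upstream-most promoter window was added after seeing the data.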

Additional observations from a re-analysis of the deposited data

How the results depend on the processing

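Libraries of the same letter shared little deviation: same-letter correlations were 0.0576, -0.0195 and 0.00813 for a, b and c. Different letters gave -0.050 to 0.041. These values cannot show whether libraries of a letter were prepared together. With the letters as a replicate block 23 members passed (21 higher, 2 lower) against 24 in the main fit, and the call lost was that of ZNF816 (-0.55). Over all alternatives to the fit 23 to 26 members passed, and 23 to 25 with 1 library left out. The median log2 fold change of tested members was 1.05 with no filter, where 34 members were tested. Non-member genes of the interval that passed numbered 3 with at least 1 CPM in 3 libraries, where 3 were tested. With thresholds of 0.2 and 2 CPM 6 members were low in wild type and 6 were silent in the knockout, and the same 2 numbers, 6 and 6, came from CPM per kb with thresholds of 0.05 and 0.5. Members silent in the knockout numbered 3 to 5 with 1 library left out, the 5 without knockout replicate c. Members switched between silent and expressed, in either direction, numbered 6 or 7 under every state setting tried. With 0.2 and 2 CPM, ZNF525 (0.155 CPM in the knockout) was expressed in wild type and silent in the knockout. The same held per kb with 0.05 and 0.5 (0.040 CPM per kb) and without knockout replicate c. Of 369 recomputed member values 350 kept direction and side of the threshold, 10 lost the call, 8 gained it and 1 reversed: ZNF845, at -0.011 without wild-type replicate b, ran up to 0.092 without knockout replicate c. The calls lost were those of ZNF320 and ZNF816, given in the report. ZNF765 and ZNF761 gained a call with RLE factors (0.24 and 0.25), library totals alone (0.28 and 0.29), at least 1 CPM in 3 libraries (0.24 and 0.25) and without knockout replicate c (0.26 and 0.29). With the upstream-most promoter window the silent members had a median of 25.5 CpG. Members under 3 counts in a library cannot be told from 0 at this depth.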
